A study of Mus musculus with 24 samples.

Results

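The 6 genes Cd274, Pdcd1lg2, Cd80, Cd86, Icosl and Cd276 encode ligands of the B7 family, and they were taken by gene symbol from the 48526 genes listed for each library. They were measured by RNA-seq in T cells recovered from cultured spleen cells of OT-1 mice, whose T cell receptor transgene recognises an ovalbumin peptide. Spleen cells were cultured with 2 µg/mL of peptide, and T cells were recovered by magnetic depletion of the other cells after 24 h or 72 h. The 24 libraries form 6 groups of 4. The OVA groups received peptide alone, the TLR2 groups were labelled with an agonist of TLR2, and the TLR7 groups with an agonist of TLR7, each at both times. Agonists were added 1 h before the peptide. The protocol lists Pam3CSK4 at 300 ng/mL, a TLR2 agonist, and both Gardiquimod at 3 µg/mL and R848 at 10 µg/mL, which act on TLR7; the labels of the TLR7 libraries do not say which of these was used. Every group therefore carries the OT-1 transgene and received antigen, and no group was left unstimulated. The agonists acted on whole spleen cell cultures, with antigen-presenting cells present, before the T cells were separated. Nothing in the labels states if a group's replicates are separate mice or separate cultures, so p-values measure only the spread between these libraries, which may be technical.

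B7 ligands sit on the surface of antigen-presenting cells and bind receptors of the CD28 family on T cells. CD80 and CD86 bind CD28, which adds to the T cell receptor signal, and CTLA-4, which opposes it; PD-L1 (Cd274) and PD-L2 (Pdcd1lg2) bind the inhibitory receptor PD-1; ICOSL binds ICOS. Activated T cells can also make PD-L1 and CD80, whereas B cells, dendritic cells and macrophages are the usual source of CD86 and ICOSL. The protocol of the study also used antibodies that block CD80 or CD86, which places these ligands among the questions it asked.

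Library totals ran from 10.5 to 27.1 M counts, and 5 of the 24 libraries were below 15 M. Levels are given as CPM, counts scaled to 1 M per library. The first principal component of log2 CPM held 60.2% of the variance. It placed most 24 h libraries at one end and most 72 h libraries at the other, with 8 libraries in between: TLR2 72 h replicates 1, 3 and 4; OVA 72 h replicate 4; TLR7 24 h replicates 3 and 4; and OVA 24 h replicates 1 and 3. These are called middle libraries below, and the other 16 end libraries. Leaving the middle libraries out keeps 1 TLR2 72 h library, 2 each of OVA 24 h and TLR7 24 h, 3 of OVA 72 h, and all 4 of TLR2 24 h and TLR7 72 h. The labelled cell type was checked on its markers: Cd8a ranged from 457 to 904 CPM and Cd3e from 107 to 321 CPM over the 24 libraries. Transcripts of B cells were present too. The summed level of 19 B cell markers (20 markers without Ighm, which alone made up much of the sum) ranged from 164 to 407 CPM in OVA 24 h, 202 to 269 in TLR2 24 h and 53.4 to 86.4 in TLR7 24 h. At 72 h it ranged from 20.8 to 91.4 CPM in OVA, 18 to 169 in TLR2 and 16.9 to 22.1 in TLR7. In bulk libraries such as these, fewer cells of a type and less RNA per cell cannot be told apart.

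Of the 6 ligand genes, 5 passed the filter on low counts and were tested among 14560 genes; Cd276 did not. Compared per kilobase of exon, the ligands of PD-1 were the most abundant at 24 h. In OVA 24 h, Cd274 stood at 22.1 ± 3.42 CPM per kilobase (SD, n = 4) and Pdcd1lg2 at 20 ± 7.0, while Cd80, Cd86 and Icosl had 1.98 ± 2.11, 1.91 ± 1.22 and 1.72 ± 0.31. By 72 h in the OVA group Cd80 had reached 12.4 ± 5.09 CPM per kilobase, within the spread of Cd274 at 15.0 ± 5.28 and Pdcd1lg2 at 13.3 ± 5.75. The order of Cd80 and Cd86 turned over time in the TLR2 group, from 0.863 ± 0.234 against 3.33 ± 1.4 CPM per kilobase at 24 h to 5.46 ± 2.01 against 0.759 ± 0.522 at 72 h.

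**Figure D1:**
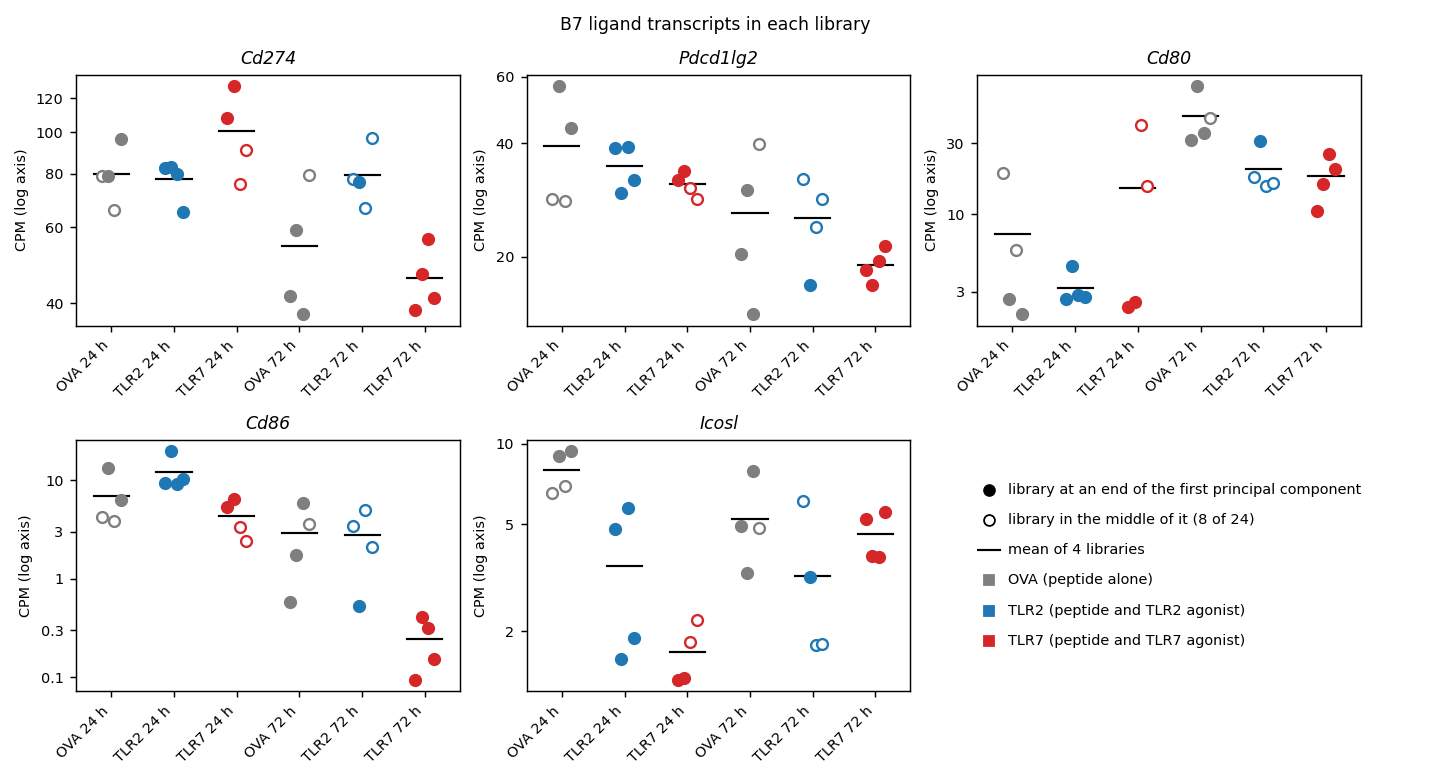
Level of each of the 5 tested ligands in CPM (log axis) by group, 1 point per library, with a line at the mean of 4 libraries; open points are the 8 middle libraries. Cd80 lies between 2.12 and 4.49 CPM in the 8 end libraries at 24 h and between 10.5 and 73.0 CPM in the 8 end libraries at 72 h, and Cd86 is lowest in TLR7 72 h, at 0.0949 to 0.413 CPM.

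Cd274 encodes PD-L1 (ENSMUSG00000016496; chromosome 19, 29367455 to 29388095, plus strand, GRCm38), and Pdcd1lg2, encoding PD-L2 (ENSMUSG00000016498; chromosome 19, 29410919 to 29471161, plus strand), begins 22.8 kb after it ends. Jak2, the kinase that carries the interferon-gamma receptor signal, ends 54.4 kb before Cd274. The windows around the RefSeq starts of this neighbouring pair (GRCm38.p6, 300 bases each, plus strand) are shown because both genes fell over time in the TLR7 group. They were read for an interferon regulatory factor core, GAAANNGAA, on both strands. The Cd274 window, chr19:29367188-29367487, holds 1 match, on the reverse strand, beginning 76 bases before the start and printed in capitals; the Pdcd1lg2 window, chr19:29410669-29410968, holds none.
Cd274: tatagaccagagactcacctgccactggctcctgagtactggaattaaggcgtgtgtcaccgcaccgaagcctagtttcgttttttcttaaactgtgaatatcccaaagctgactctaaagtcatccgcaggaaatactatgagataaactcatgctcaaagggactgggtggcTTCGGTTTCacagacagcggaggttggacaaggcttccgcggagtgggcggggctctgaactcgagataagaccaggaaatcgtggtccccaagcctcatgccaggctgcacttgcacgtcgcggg
Pdcd1lg2: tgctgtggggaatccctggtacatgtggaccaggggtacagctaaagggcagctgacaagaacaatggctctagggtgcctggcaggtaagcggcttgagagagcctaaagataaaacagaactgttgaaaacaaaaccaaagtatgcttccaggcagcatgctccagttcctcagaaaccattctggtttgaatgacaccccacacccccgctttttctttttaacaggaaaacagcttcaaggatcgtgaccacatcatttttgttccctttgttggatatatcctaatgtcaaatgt
Of 32817 windows of this length around RefSeq starts, 8.55% hold the same 9 letters. An NF-kappaB-like motif of 10 letters, held by 1.63% of windows, was in the window of none of the 5 ligands with a RefSeq entry (Cd274, Pdcd1lg2, Cd80, Icosl and Cd276).

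The group mean of Cd274 was lowest at 72 h with TLR7 agonist, and Cd274 fell over time in that group. The lowest library was OVA 72 h replicate 3, at 37.7 CPM. Without the middle libraries, TLR7 differed from OVA at 72 h by 0.04 on the log2 scale. The 4 TLR7 libraries had 108, 128, 75.9 and 90.7 CPM at 24 h and 38.5, 46.7, 56.4 and 41.2 CPM at 72 h, so the times did not overlap. The change over time in TLR7 was -1.13 ± 0.21 on the log2 scale (SE), a 2.2-fold fall with an adjusted p of 0.00091 by edgeR. The OVA group had 79.2, 78.9, 66.0 and 96.2 CPM at 24 h and 41.5, 59.1, 37.7 and 79.5 CPM at 72 h, where the middle library, replicate 4, was the highest of its group and overlapped the 24 h values. This difference of -0.56 ± 0.21 did not pass the test (adjusted p = 0.0599, edgeR); without the middle libraries it was -0.92 and passed (adjusted p = 0.00291). In the TLR2 group the level was alike at both times, with 82.6, 82.8, 79.8 and 65.2 CPM at 24 h against 77.7, 76.5, 66.6 and 97.0 CPM at 72 h, a difference of 0.03 ± 0.21.

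The agonists did not change Cd274 relative to peptide alone at either time by the test used. The difference at 24 h was -0.04 ± 0.21 (log2, SE) for TLR2 and 0.33 ± 0.21 for TLR7, and at 72 h it was 0.55 ± 0.21 and -0.25 ± 0.21, with adjusted p-values from 0.358 to 0.923 by edgeR. All 4 TLR2 libraries at 72 h, 66.6 to 97.0 CPM, stood above 3 of the 4 OVA libraries, and without OVA 72 h replicate 4 the TLR2 difference passed (adjusted p = 0.0329, edgeR). Between the agonists at 72 h, Cd274 was 1.74-fold lower with TLR7 than with TLR2 (log2 -0.80 ± 0.21, adjusted p = 0.0364, edgeR), and the libraries of the 2 groups did not overlap. With the middle libraries left out, which leaves 1 TLR2 library, the difference was -0.70 and did not pass (adjusted p = 0.594). Leaving out any of 6 single libraries (TLR2 72 h replicates 1, 3 and 4, TLR7 72 h replicates 1, 2 and 4) also ended this call, with values of -0.69 to -0.85. Whether the TLR7 effect differed between times was tested directly and did not pass (log2 -0.58 ± 0.29, adjusted p = 0.338, edgeR). In the order of group means, from 100 CPM in TLR7 24 h to 45.7 CPM in TLR7 72 h, each neighbouring pair of groups overlapped.

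Pdcd1lg2 was below Cd274 in CPM in each of the 6 groups. In the TLR7 group it had 31.9, 33.7, 30.5 and 28.5 CPM at 24 h and 18.5, 16.9, 19.5 and 21.4 CPM at 72 h. The times did not overlap, and the fall of -0.71 ± 0.26 (log2, SE; 1.63-fold) passed with an adjusted p of 0.0364 by edgeR; without the middle libraries it was -0.77 (adjusted p = 0.0167). It passed in 2 of the 8 fits that left out 1 library, those without TLR7 24 h replicate 4 or TLR7 72 h replicate 4, and the values without replicates 1 to 3 of either time were -0.65 to -0.72. The OVA group had 28.4, 56.7, 28.2 and 44 CPM at 24 h and 20.3, 30.1, 14.1 and 39.8 CPM at 72 h, overlapping, with a difference of -0.59 ± 0.26 that did not pass (adjusted p = 0.0991, edgeR). In the TLR2 group the values were 38.8, 29.6, 39.0 and 32.0 CPM and then 32.2, 16.9, 24.0 and 28.4 CPM, a difference of -0.46 ± 0.26 (adjusted p = 0.158, edgeR). Both passed when the middle libraries were left out, at -1.20 for OVA (adjusted p = 0.00146) and -1.02 for TLR2 (adjusted p = 0.0273). No agonist changed Pdcd1lg2 relative to peptide alone by this test, with log2 differences from -0.45 to -0.04 and adjusted p-values from 0.377 to 0.959. The order of its group means ran from 39.3 CPM in OVA 24 h to 19.1 CPM in TLR7 72 h, with overlap between each pair of neighbours.

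Cd80 rose from 24 h to 72 h in the OVA and TLR2 groups. It encodes the higher-affinity of the shared ligands of CD28 and CTLA-4 (ENSMUSG00000075122; chromosome 16, 38455561 to 38496335, plus strand). In the TLR2 group it went from 2.67, 4.49, 2.85 and 2.77 CPM to 17.7, 31.3, 15.6 and 16.3 CPM, a 6.3-fold rise (log2 2.66 ± 0.73, adjusted p = 0.0125, edgeR). In the OVA group it went from 18.8, 2.68, 5.73 and 2.12 CPM to 31.4, 73.0, 35.0 and 44.5 CPM, a 6.17-fold rise (log2 2.63 ± 0.71, adjusted p = 0.0333, edgeR). Neither pair of times overlapped. The TLR2 call was lost without TLR2 72 h replicate 2 (log2 2.36, adjusted p = 0.0513), and the OVA call without OVA 24 h replicate 2 or 4 or OVA 72 h replicate 1, 2 or 3 (log2 2.25 to 2.74, adjusted p = 0.0579 to 0.122). In the TLR7 group the 24 h libraries split into 2.37 and 2.58 CPM in replicates 1 and 2 and 39.6 and 15.5 CPM in replicates 3 and 4, which are the middle libraries, against 10.5, 16.0, 25.4 and 20 CPM at 72 h. The difference over all 8 libraries was 0.25 ± 0.67 (adjusted p = 0.771, edgeR), and without the middle libraries 2.89 (adjusted p = 6.58e-05).

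In the OVA and TLR7 groups, which hold the 4 middle libraries at 24 h, the 24 h level of Cd80 followed the place of the library on the first principal component. The 8 end libraries at 24 h had 2.12 to 4.49 CPM and the 4 middle libraries at 24 h had 5.73 to 39.6 CPM, with no overlap; at 72 h, end and middle libraries spanned 10.5 to 73.0 and 15.6 to 44.5 CPM. Because Cd80 itself moves with time, the part of these libraries' position in the differences between conditions was not tested. Without the middle libraries the rise over time was 4.27 on the log2 scale in OVA (adjusted p = 4.16e-06) and 3.31 in TLR2 (adjusted p = 1.52e-05). At 24 h the differences between conditions did not pass: -1.21 ± 0.71 for TLR2 and 1.02 ± 0.68 for TLR7 against OVA, and 2.24 ± 0.72 for TLR7 against TLR2 (adjusted p = 0.0964, edgeR). The first and last of these changed sign without the middle libraries, to 0.40 and -0.32, and the TLR7 difference from OVA was then 0.08.

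At 72 h Cd80 was highest with peptide alone. OVA libraries, at 31.4 to 73.0 CPM, all stood above the TLR2 libraries (15.6 to 31.3 CPM) and the TLR7 libraries (10.5 to 25.4 CPM). The differences, -1.18 ± 0.67 for TLR2 and -1.35 ± 0.68 for TLR7, did not pass (adjusted p = 0.477 and 0.291, edgeR), and without the middle libraries the TLR7 difference passed narrowly at -1.31 (adjusted p = 0.0477). OVA 72 h and TLR2 72 h, at means of 46.0 and 20.2 CPM, were the neighbours in the order of group means that did not overlap; the order then ran on through TLR7 72 h, TLR7 24 h and OVA 24 h to TLR2 24 h at 3.2 CPM, with overlap at each step.

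Cd86 fell over time in the TLR2 and TLR7 groups and was near the limit of detection in TLR7 72 h. The gene (ENSMUSG00000022901; chromosome 16, 36603869 to 36666081, minus strand) lies 1.79 Mb from Cd80 and encodes the CD28 ligand that resting antigen-presenting cells already carry. TLR7 libraries went from 5.36, 6.49, 3.33 and 2.4 CPM at 24 h to 0.0949, 0.413, 0.314 and 0.152 CPM at 72 h, which rest on 1, 5, 7 and 4 counts; 3 counts correspond to 0.11 to 0.286 CPM in these 24 libraries. The groups did not overlap, and the fall was 17.6-fold (log2 -4.14 ± 0.76, adjusted p = 0.000895, edgeR). TLR2 libraries went from 9.44, 19.8, 9.24 and 10.3 CPM to 3.43, 0.536, 5.03 and 2.12 CPM, also without overlap, a 4.4-fold fall (log2 -2.14 ± 0.61, adjusted p = 0.015, edgeR; -1.79 and 0.0568 without TLR2 72 h replicate 2). OVA libraries went from 4.29, 13.5, 3.88 and 6.36 CPM to 0.589, 1.73, 5.92 and 3.59 CPM, overlapping, and the difference of -1.25 ± 0.60 did not pass (adjusted p = 0.124, edgeR). It was -1.90 (adjusted p = 0.0174) when the middle libraries were left out.

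At 72 h Cd86 was 11.9-fold lower with TLR7 agonist than with peptide alone (log2 -3.58 ± 0.75, adjusted p = 0.0112, edgeR) and 11.2-fold lower than with TLR2 agonist (log2 -3.49 ± 0.75, adjusted p = 0.0183, edgeR). The 4 TLR7 libraries lay below all 8 others. The call against OVA was lost without TLR7 72 h replicate 1 or 4 (log2 -3.30 and -3.28, adjusted p = 0.0603 and 0.0723), and that against TLR2 without TLR2 72 h replicate 1 or 3 or TLR7 72 h replicate 1, 2 or 4 (log2 -3.02 to -3.76, adjusted p = 0.0594 to 0.0933). Without the middle libraries the difference from OVA was -3.36 (adjusted p = 0.0233), and the difference from the single remaining TLR2 library, at 0.536 CPM, was -1.09 and did not pass (adjusted p = 0.726). At 24 h no difference between conditions passed: 0.80 ± 0.59 for TLR2 and -0.69 ± 0.59 for TLR7 against OVA. The change of the TLR7 effect between times, -2.89 ± 0.95, did not pass either (adjusted p = 0.133, edgeR). In the order of group means, from 12.2 CPM in TLR2 24 h, each pair of neighbours overlapped down to TLR2 72 h at 2.78 CPM, which stood apart from TLR7 72 h at 0.243 CPM.

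Icosl, the ligand of ICOS (ENSMUSG00000000732; chromosome 10, 78069302 to 78083913, plus strand), was lowest in TLR7 24 h and rose from there to 72 h. At 24 h the OVA libraries had 6.53, 9.0, 6.93 and 9.37 CPM and the TLR7 libraries 1.32, 1.34, 1.82 and 2.21 CPM, without overlap. The difference was 4.7-fold (log2 -2.23 ± 0.42, adjusted p = 0.0286, edgeR), and without the middle libraries -2.74 (adjusted p = 0.0211). The call was lost on leaving out any of 6 single libraries (OVA 24 h replicates 1 to 4, TLR7 24 h replicates 1 and 2), with values of -2.13 to -2.32 and adjusted p-values of 0.0552 to 0.156. The TLR2 libraries had 4.8, 1.58, 5.78 and 1.88 CPM, overlapping TLR7 and below all OVA libraries, a difference of -1.16 ± 0.41 that did not pass (adjusted p = 0.22, edgeR). With TLR7 agonist the level reached 5.22, 3.8, 3.77 and 5.57 CPM at 72 h, a 2.72-fold rise (log2 1.44 ± 0.42, adjusted p = 0.0107, edgeR) that makes Icosl the ligand that rose in this group while Cd274, Pdcd1lg2 and Cd86 fell. At 72 h the OVA libraries had 4.92, 3.29, 7.92 and 4.86 CPM and the TLR2 libraries 6.09, 3.18, 1.78 and 1.79 CPM, both overlapping TLR7. The change of the TLR7 effect between times, 2.04 ± 0.58, did not pass (adjusted p = 0.0871, edgeR; 0.0188 at the lowest among the alternatives run). Neighbours in the order of group means, from 7.96 CPM in OVA 24 h to 1.67 CPM in TLR7 24 h, overlapped throughout.

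Cd276, which encodes B7-H3 (ENSMUSG00000035914; chromosome 9, 58524298 to 58555437, minus strand), was not detectable at this depth in most libraries. It had 9 counts in all, 18 libraries at 0 and at most 3 counts in a library.

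Counted over comparisons, the ligands called are read against the share of all genes called. For TLR7 against OVA, 1 of 5 tested ligands was called at 24 h, where 0.22% of all genes were called, and 1 of 5 at 72 h, where 3.62% were. For TLR7 against TLR2 at 72 h, 2 of 5 were called beside 4.8% of all genes. At 24 h none of the 5 was called by edgeR beside 1.24%, and DESeq2 called Cd80 beside 1026 of 26646 genes. Over time, 1 of 5 was called in OVA beside 18.6% of all genes, 2 of 5 in TLR2 beside 39.0%, and 4 of 5 in TLR7 beside 43.2%, so the counts in OVA and TLR2 are near the background of those comparisons. For TLR2 against OVA, edgeR called no ligand and 0.0% of genes at either time, although 2211 genes at 24 h and 1693 at 72 h had an unadjusted p under 0.05, and DESeq2 called 351 and 86 genes. The test of whether the agonist effect differed between times called no ligand; it called 0.0% of genes for TLR2 and 0.81% for TLR7. With the middle libraries left out, 1 ligand was called in TLR7 against OVA at 24 h beside 2.52% of genes and 2 at 72 h beside 1.63%, none in TLR7 against TLR2 at 72 h beside 0.0%, and over time 4 in OVA beside 48.5%, 3 in TLR2 beside 43.4% and 5 in TLR7 beside 52.1%. Without the 5 shallow libraries, which leaves 2 of TLR7 72 h (replicates 3 and 4), no ligand was called in TLR7 against OVA at either time, in TLR7 against TLR2 at 72 h, or over time in OVA and TLR7; of 14949 genes, edgeR then called 5 over time in TLR7 and 0 in the other 4 of these comparisons (714 to 3743 with an unadjusted p under 0.05). Cd274 over time in TLR7 was then -0.91 (adjusted p = 0.0815). The comparisons with OVA at a given time share the OVA libraries.

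**Figure D2:**
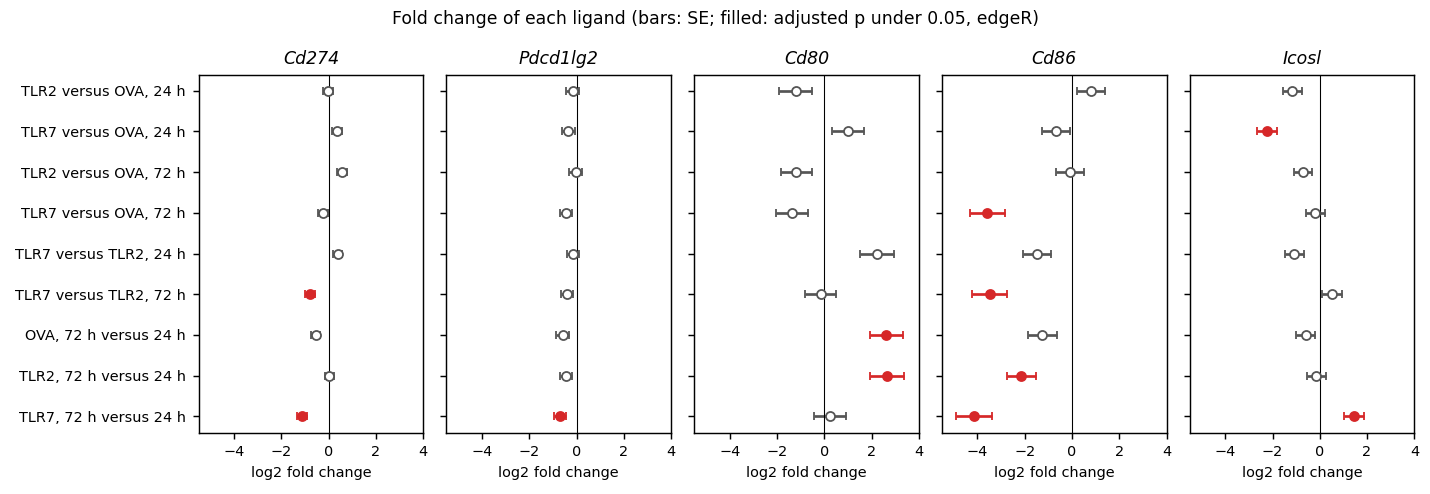
Log2 fold change of each tested ligand with its SE in 9 comparisons, filled where the adjusted p was under 0.05 by edgeR. Icosl is low in TLR7 against OVA at 24 h (-2.23), Cd86 in TLR7 at 72 h (-3.58 against OVA), and Cd80 rose over time in OVA (2.63) and TLR2 (2.66).

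The ligands differed in how they followed the B cell transcripts. Cd86 followed them most closely: the median Pearson r of its log2 CPM with the 20 B cell markers was 0.86 over the 24 libraries, and 17 of the 20 were above 0.5. After the group means were subtracted the median was 0.70, with 16 of 20 above 0.5. For Pdcd1lg2 the medians were 0.69 and 0.35, for Cd274 0.48 and 0.11, and for Icosl 0.16 and 0.27. For Cd80 they were negative, -0.59 and -0.36, while its median r with 12 CD8 T cell markers was 0.72 and 0.60. Of these 12, 7 and 6 were above 0.5. Over the 24 libraries r ran from -0.69 for Cd5 to 0.88 for Cd3g, and was -0.13 for Cd8a. With the same T cell markers the medians were -0.69 and -0.50 for Cd274, -0.66 and -0.36 for Cd86, -0.60 and -0.32 for Pdcd1lg2, and 0.39 and 0.26 for Icosl. Cd86 also followed markers of other antigen-presenting cells, with medians of 0.73 and 0.56 for 8 macrophage markers and 0.70 and 0.30 for 9 dendritic cell markers. With 10 MHC class II genes its medians were 0.20 and 0.19, with 4 of 10 above 0.5 each time. For Icosl they were 0.45 and 0.43, for Pdcd1lg2 0.25 and 0.03, for Cd274 -0.11 and -0.19, and for Cd80 -0.29 and -0.15. These correlations are descriptions over libraries that share time, condition and position on the first principal component.

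Library by library, Cd86 and the summed B cell markers were lowest together, in TLR7 72 h. The sum there was 16.9 to 22.1 CPM, and Ms4a1, which encodes the B cell surface protein CD20, had no count in 3 of the 4 libraries. Other B cell markers kept counts there: Fcmr had 5.99 to 7.98 CPM, Cd79b 2.99 to 5.03 CPM, and Ighm, left out of the sum, 127 to 267 CPM. The 3 other libraries with as low a sum, OVA 72 h replicates 1 and 2 (23.4 and 20.8 CPM) and TLR2 72 h replicate 2 (18 CPM), had 0.589, 1.73 and 0.536 CPM of Cd86, each above every TLR7 72 h library. With Ighm included, their sums were 394, 604 and 292 CPM, above the 149 to 288 CPM of TLR7 72 h. In OVA 72 h, replicates 3 and 4 had both the higher sums, 85.3 and 91.4 CPM, and the higher Cd86, 5.92 and 3.59 CPM. Replicate 3 also had the highest sum of macrophage markers in that group, 80.4 CPM, against 5.43, 6.04 and 9.8 CPM in replicates 1, 2 and 4. Cd86 also varied at similar B cell sums at 24 h: TLR2 24 h replicate 2 had 19.8 CPM of Cd86 with a sum of 221 CPM, beside 9.24 to 10.3 CPM with sums of 202 to 269 CPM in the other three. With the B cell marker level as a covariate in the fit, the TLR7 difference of Cd86 at 72 h was -1.99 against OVA and -1.37 against TLR2, and neither passed; the covariate itself differs between these groups, and of 14560 genes the fit with it called 63 and 0 in these comparisons (1959 and 1655 with an unadjusted p under 0.05).

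Icosl and Cd80 were not lowest where the B cell sum was lowest. The highest values of Icosl and of the sum were both in OVA 24 h, at 9.37 CPM (replicate 4) and 407 CPM (replicate 2). Icosl was 1.32 to 2.21 CPM in TLR7 24 h, where the sum was 53.4 to 86.4 CPM, and 3.77 to 5.57 CPM in TLR7 72 h, where the sum was 16.9 to 22.1 CPM. With the covariate, the rise of Icosl over time in TLR7 still passed, and it was the 1 ligand called in that comparison. Cd80 was highest, at 73.0 CPM, in OVA 72 h replicate 2, with a sum of 20.8 CPM, and in the 8 end libraries at 24 h it was 4.49 CPM or less with sums of 82.9 to 407 CPM. With Ighm included, the sum was 604 CPM in OVA 72 h replicate 2, of which Ighm made up 583 CPM. It was then 406 to 1044 CPM in those 24 h libraries, so the contrast in sums depends on leaving Ighm out. Cd274 held 38.5 to 56.4 CPM in TLR7 72 h, and TLR2 72 h replicate 2 had 76.5 CPM with a sum of 18 CPM. B cell markers differed from each other in TLR7 72 h. Ms4a1 was near 0 there, while Fcmr had 5.99 to 7.98 CPM, Cd79b 2.99 to 5.03 CPM and Ighm 127 to 267 CPM. The fall of Cd274 over time in TLR7 was -1.0 with the covariate and no longer passed in a fit that called 273 of 14560 genes. The source cell of each ligand was not tested.

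**Figure D3:**
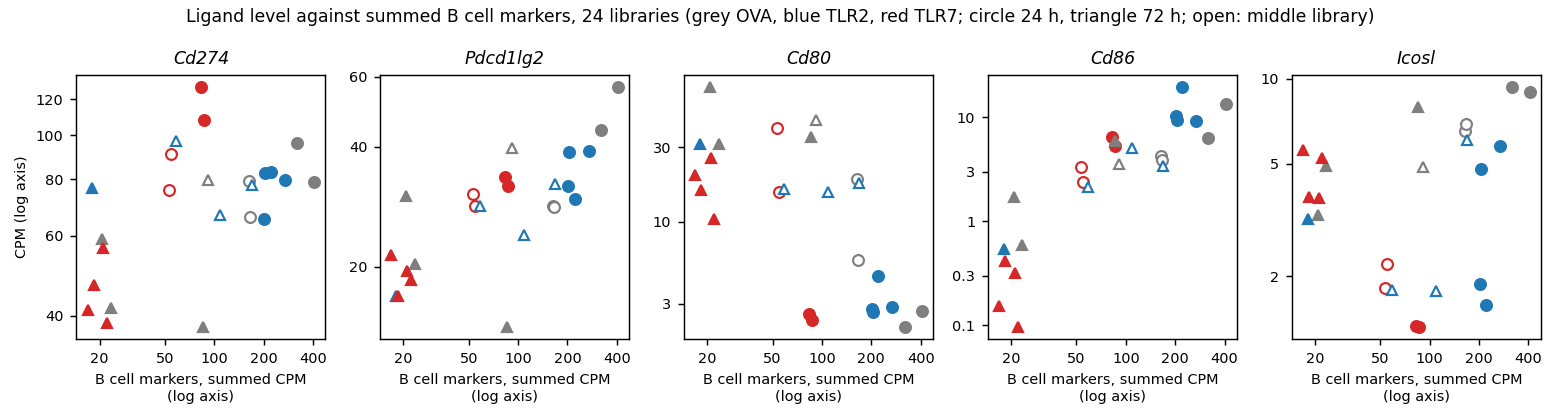
Level of each ligand in CPM against the summed CPM of 19 B cell markers (both log axes) in 24 libraries; colour is the condition, shape the time, and open points are middle libraries. Cd86 is highest, 19.8 CPM, at a sum of 221 CPM and lowest, 0.0949 CPM, at a sum of 22.1 CPM. Cd80 is at most 4.49 CPM in the end libraries at 24 h, and Icosl is lowest in the TLR7 24 h libraries at sums of 53.4 to 86.4 CPM.

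Other antigen-presenting cell markers were also present. Of 20 B cell markers, 3 fell in TLR7 against OVA at 24 h (median log2 -1.66, against -0.03 for all genes), beside 0.22% of all genes called. At 72 h 6 fell (median -3.04, all genes -0.08), beside 3.62%. In TLR7 against TLR2 at 72 h 11 fell (median -3.47, all genes -0.03), beside 4.8%, and none rose in these comparisons. Without the middle libraries the last median was -0.03 and none was called. Of 13 dendritic cell markers, 9 were tested. The sum of all 13 was 134 to 172 CPM in OVA 72 h and 93.1 to 131 CPM in TLR7 72 h. Cst3 and Bst2 made up much of it, with means of 94.1 and 49.2 CPM in OVA 72 h and 69.3 and 43.5 CPM in TLR7 72 h. In TLR7 72 h, 5 of the 13 had no count in any library. In TLR7 against OVA at 72 h, 8 of the 9 tested were lower (median log2 -1.41) and 1 was called, beside 3.62% of all genes. The 14 macrophage markers summed to 3.75 to 7.49 CPM in TLR7 72 h. In OVA 72 h they summed to 5.43, 6.04, 80.4 and 9.8 CPM, so the high value came from replicate 3 alone. The part of these cells in the ligand levels was not tested.

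**Figure D4:**
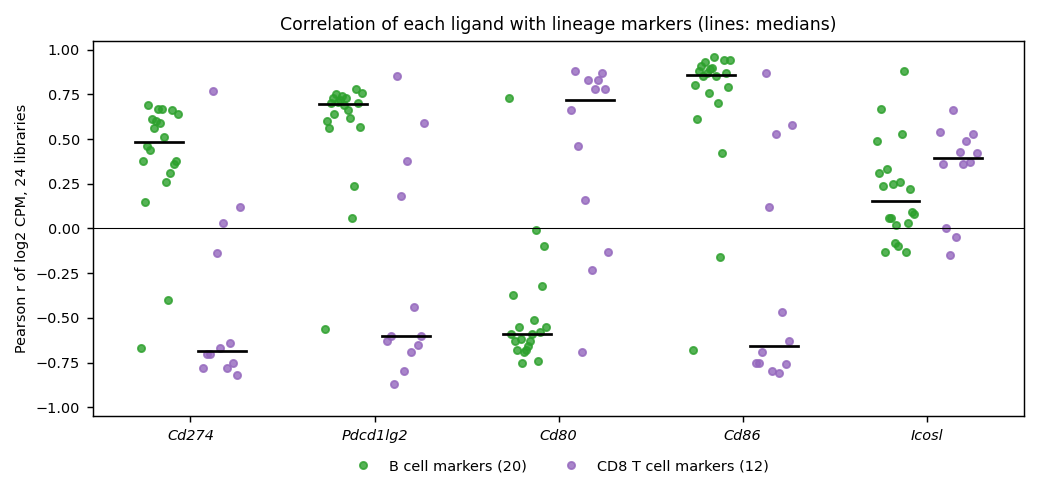
Pearson r of log2 CPM over 24 libraries between each ligand and each of 20 B cell markers or 12 CD8 T cell markers, with medians as lines. The B cell medians run from 0.86 for Cd86 to -0.59 for Cd80, and the T cell median of Cd80 is 0.72.

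The genes most like each ligand over the 24 libraries, out of 9164 with a mean of at least 5 CPM (unnamed gene models and variable receptor segments set aside), were listed by Pearson r of log2 CPM. Cd86 was most like Plekha1 (r = 0.97), Atp1b1 (0.96) and Bank1 (0.96), the last a B cell scaffold protein; with group means removed, Bank1 came first at 0.91. Bank1 had 8.23 to 19.0 CPM in TLR2 24 h and 0 to 0.165 CPM in TLR7 72 h. Icosl was most like Fcmr (0.88, and 0.82 with group means removed), the receptor for IgM, followed by Thtpa (0.84) and H2-Ob (0.84). Fcmr had the same low point as Icosl, with 0.0879 to 1.03 CPM in TLR7 24 h against 8.22 to 17.9 CPM in OVA 24 h (log2 -4.46 ± 0.74, adjusted p = 0.0283, edgeR) and 5.99 to 7.98 CPM in TLR7 72 h. Cd80 was most like Grb10 (0.98), Sft2d2 (0.97) and Itgb3 (0.97), and Grb10 also split the TLR7 24 h libraries, into 0.132, 0.572, 35.1 and 6.44 CPM. Cd274 was most like Atxn1 (0.93), Bdp1 (0.92) and Nup98 (0.92), and Pdcd1lg2 most like Zcwpw1 (0.94), Glod4 (0.93) and Bcl2a1b (0.93). The neighbours Cd274 and Pdcd1lg2 had an r of 0.69 with each other, and 0.62 with group means removed.

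Jak2, which lies 54.4 kb before Cd274 and is among 18 genes listed as regulators of PD-L1, rose with TLR7 agonist at 24 h. It had 187, 174, 160 and 197 CPM in OVA 24 h and 398, 440, 284 and 264 CPM in TLR7 24 h, without overlap (log2 0.95 ± 0.19, adjusted p = 0.0409, edgeR). By 72 h the TLR7 libraries had 135, 145, 160 and 126 CPM, a fall of -1.29 ± 0.19 (adjusted p = 0.00038, edgeR). Irf1, the interferon-induced factor that acts on Cd274, fell in the same comparison by 0.90 on the log2 scale (adjusted p = 0.000803, edgeR). Of the 18 regulators, 1 rose and 6 fell over time in TLR7 (median -0.12, all genes -0.01), and of 18 genes of the interferon-gamma response 3 rose and 10 fell (median -0.72), beside 43.2% of all genes called in this comparison. In TLR7 against OVA at 24 h, Jak2 was the 1 regulator called, beside 0.22% of all genes.

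The receptors of these ligands on T cells were examined in the same comparisons. Of 7 receptors, 1 rose and 1 fell in TLR7 against OVA at 72 h, beside 3.62% of all genes called. Icos, the receptor of ICOSL, had 707, 646, 622 and 564 CPM in TLR7 72 h and 467, 197, 119 and 151 CPM in OVA 72 h, without overlap (log2 1.44 ± 0.38, adjusted p = 0.039, edgeR; 1.3 and 0.0781 without the middle libraries). Icosl differed by -0.19 ± 0.40 in that comparison. Pdcd1, encoding PD-1, had 20.9, 34.3, 57.5 and 45.8 CPM in TLR7 72 h and 147, 203, 123 and 190 CPM in OVA 72 h, also without overlap (log2 -2.06 ± 0.43, adjusted p = 0.00999, edgeR), while its ligands Cd274 and Pdcd1lg2 differed by -0.25 ± 0.21 and -0.45 ± 0.26. Cd28 fell over time in TLR7, from 629 ± 162 to 293 ± 45.1 CPM (SD, n = 4; log2 -1.10 ± 0.22, adjusted p = 0.00136, edgeR), where 43.2% of all genes were called. Ctla4, the inhibitory receptor of CD80 and CD86, rose over time in TLR2, from 316 ± 116 to 993 ± 409 CPM (log2 1.65 ± 0.51, adjusted p = 0.02, edgeR). Cd80 rose and Cd86 fell in that comparison, and 39.0% of all genes were called. In OVA and TLR7 the rise of Ctla4 did not pass (0.86 ± 0.5 and 0.81 ± 0.5, adjusted p = 0.196 and 0.19, edgeR). Without the middle libraries it passed in both, at 2.69 and 1.6 (adjusted p = 3.57e-05 and 0.00126, edgeR), beside 48.5% and 52.1% of all genes.

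Costimulatory ligands outside the family were counted in the same comparisons. Of 8 listed, 7 were tested; 1 fell in TLR7 against OVA at 72 h (median log2 -1.49), 3 in TLR7 against TLR2 at 72 h (median -1.53) and 5 over time in TLR7 (median -1.59), beside 3.62%, 4.8% and 43.2% of all genes called, and none rose. The summed level of the 8 was 65.8 to 158 CPM in TLR7 72 h, overlapping the 128 to 271 CPM of OVA 72 h and below the 226 to 331 CPM of TLR2 72 h. Tnfsf4, which encodes OX40L, the third ligand the study blocked with an antibody, was at 2.6 ± 2.31 CPM in TLR7 72 h and 11.1 ± 5.27 CPM in TLR2 72 h (SD, n = 4; log2 -2.05 ± 0.52, adjusted p = 0.0314, edgeR). Tnfsf8, encoding CD30L, fell by 2.04 on the log2 scale against OVA at 72 h (adjusted p = 0.00749, edgeR). Without the middle libraries none of the 3 differences from TLR2 passed. Of 9 further relatives of the family found in the data, 5 were tested: 2 rose over time in OVA, 2 in TLR2 and 1 in TLR7, where 18.6%, 39.0% and 43.2% of all genes were called, among them Lgals9, encoding galectin-9, by 0.93 in OVA (adjusted p = 0.0333, edgeR) and 0.76 in TLR2 (adjusted p = 0.0172, edgeR). None of these relatives was called between conditions at either time.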

How the data were processed

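The authors deposited 1 table of estimated counts per library, each with 48526 genes and values that are whole or fractional (28.7% of values above 0 were not whole). STAR, RSEM and edgeR and the build GRCm38 are named per the submitters' processing notes; their versions, the annotation and the strand setting of counting were not given in the sources used here. Per the labels' protocols the libraries were poly(A)-selected and stranded.

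Estimated counts were rounded and fitted with edgeR 4.0.16 (R 4.3.3; TMM scaling, minimum count 10, quasi-likelihood test, 1 term per group, all 24 libraries, 18 residual degrees of freedom) over 14560 genes, with Benjamini-Hochberg adjusted p under 0.05 as threshold. CPM used TMM-scaled totals; log2 CPM used a prior count of 2. Coordinates and exon lengths came from GENCODE on GRCm38, matched for 48144 IDs, and start windows from RefSeq, matched for 5 of 6 ligands.

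The text names every ligand, and other genes by list and rank: those called with the lowest p of a fixed list, and those most like a ligand. Members and lists were chosen with earlier results of these data known. Alternatives were another scaling, other filters, DESeq2 1.42.0, a replicate block, fewer groups, a B cell covariate and leaving out libraries; the last included the middle and the shallow libraries, chosen after seeing the data. At 10.5 to 27.1 M counts, counting error matters for Cd86 in TLR7 72 h and for Cd276.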

Additional observations from a re-analysis of the deposited data

Results flagged for a closer look

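Among 30 sets of 4 libraries (5 ligands in 6 groups), 3 had a library far from the other three; chance gives about 1 in 20 sets. Cd80 was 4.49 CPM in TLR2 24 h replicate 2, beside 2.67 to 2.85 CPM in the others. Cd86 was 19.8 CPM in the same library, beside 9.24 to 10.3 CPM. Cd80 was 31.3 CPM in TLR2 72 h replicate 2, beside 15.6 to 17.7 CPM; this is the end library of its group, and the other three are middle libraries.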

How the results depend on the processing

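No ligand that was called changed sign under any alternative run. The number of ligands called depended on the libraries and on the B cell covariate. With the B cell marker level as a covariate, 0 ligands were called in TLR7 against OVA at 24 h and at 72 h, in TLR7 against TLR2 at 72 h, and over time in OVA and TLR2; 1 was called over time in TLR7 (Icosl), and 1 for the change of the TLR7 effect (Cd86). That fit called 0 of 14560 genes in TLR7 against OVA at 24 h, in TLR7 against TLR2 at 72 h and over time in OVA, and 1 over time in TLR2. It called 63 in TLR7 against OVA at 72 h, 273 over time in TLR7 and 465 for the change of the TLR7 effect. With only the groups compared in the fit, 0 were called in TLR7 against OVA at either time and over time in OVA, where 0, 29 and 0 genes in all were called. Without the 5 shallow libraries, 0 were called in both comparisons of TLR7 with OVA, in TLR7 against TLR2 at 72 h, and over time in OVA and in TLR7, where 5 of 14949 genes were called, and 0 genes in the other 4 of these comparisons. Without the 8 middle libraries, 2 were called in TLR7 against OVA at 72 h, 0 in TLR7 against TLR2 at 72 h and 4 over time in OVA. DESeq2 called 1 in TLR7 against TLR2 at 24 h (Cd80), 2 over time in OVA and 1 for the change of the TLR7 effect (Icosl). Of 26646 genes, DESeq2 called 1026, 3944 and 450 in these comparisons. A stricter filter called 2 over time in OVA, and its count of all genes is not given here. The cause was not tested.

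Leaving out 1 library at a time gave 0 to 1 ligands in TLR7 against OVA at 24 h, 0 to 1 in TLR2 against OVA at 72 h, 0 to 1 in TLR7 against OVA at 72 h, 0 to 1 in TLR7 against TLR2 at 24 h, 0 to 2 in TLR7 against TLR2 at 72 h, 0 to 3 over time in OVA, 0 to 2 over time in TLR2 and 0 to 2 for the change of the TLR7 effect. Over time in TLR7, the calls of Cd274, Cd86 and Icosl passed in 8 of 8 fits and that of Pdcd1lg2 in 2. The counts of all genes called in the fits with 1 library left out are not given here. A ligand call lost or gained in them can therefore not be told from a general change in calls.

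Differences that were not called and changed sign include the following. Cd274 in TLR2 against OVA at 24 h was 0.13 without the shallow libraries and -0.15 to 0.06 with 1 library left out, and in TLR7 against OVA at 72 h 0.04 without the middle libraries and -0.39 to 0.05 with 1 library left out. Pdcd1lg2 was -0.32 to 0.01 in TLR2 against OVA at 24 h with 1 library left out, 0.10 in TLR7 against OVA at 24 h with the covariate, and in TLR2 against OVA at 72 h 0.01 with no filter, 0.00 with the replicate block, and -0.25 to 0.28 when 1 library was left out. With the middle libraries left out, Pdcd1lg2 in TLR7 against TLR2 at 72 h was 0.22 in place of -0.41, its change of the TLR7 effect 0.43 in place of -0.12, and the change of the TLR2 effect on Cd80 -0.96 in place of 0.03. Cd80 was 0.40 in TLR2 against OVA and -0.32 in TLR7 against TLR2 at 24 h without the middle libraries, -0.11 (without TLR7 replicate 3) to 2.05 in TLR7 against OVA at 24 h with 1 library left out, and over time in TLR7 -0.49 with the covariate and -0.10 (without TLR7 24 h replicate 1) to 1.38 with 1 library left out. Cd86 over time in OVA was 0.76 with the covariate.

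Replicate numbers are shared between groups, but the deviations of same-numbered libraries from their group means had correlations from -0.62 to 0.52 (median 0.039), so the numbers were not taken as pairs. With the replicate block, 4 ligands were called over time in TLR7, beside 6428 of 14560 genes, and the ligand counts of the other comparisons were within 1.5 times those without it.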
